A study of Mus musculus with 18 samples.

Results

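The genotype by IL-6 interaction asks whether adding IL-6 to mouse bone marrow cultures changes transcripts by the same amount in wild-type (WT) marrow and in marrow labelled Cysltr1-/-. It was measured in the 12 libraries, of 18 in the series, whose titles give WT or Cysltr1-/- together with GM-CSF or GM-CSF+IL-6. They form 4 groups of 3. The other 6 libraries came from cultures with tumour conditioned medium and took no part beyond 1 alternative fit. All marrow was from mice described as BALB/c WT or Cysltr1 deficient, and every culture, controls included, received GM-CSF at 40 ng/mL for 4 days in RPMI 1640 with serum. The IL-6 cultures received IL-6 at 40 ng/mL in addition to GM-CSF, so the effect of IL-6 is always its effect on top of GM-CSF. Each sample pooled marrow of 3 mice, and the allele is given as a deficiency of the whole mouse with no Cre line or cell type named. Whether the 3 samples of a group came from separate pools is not stated, so p-values measure the spread between these samples, which may be technical.

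IL-6 binds its receptor chain IL6RA together with the shared signal transducer gp130, encoded by Il6st, and activates the transcription factor STAT3, which in marrow cells supports myeloid output and switches on its own inhibitor Socs3. CYSLTR1 is a G protein-coupled receptor for the cysteinyl leukotrienes, lipid mediators made from arachidonic acid by mast cells, eosinophils and other myeloid cells. Pathways that recur below are the amino acid response, in which the transcription factor ATF4 drives genes for amino acid uptake, amino acid synthesis and tRNA charging, and the sterol response, in which SREBP factors drive genes for cholesterol and fatty acid synthesis when sterols are scarce.

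Between 17.8 and 32.0 M counts fell in annotated genes per library. Of 55536 gene identifiers, 21615 passed the filter on low counts. Reads in no annotated feature averaged 14.2% in WT GM-CSF, 14.5% in WT IL-6, 17.6% in labelled-deficient GM-CSF and 19.5% in labelled-deficient IL-6 libraries. This share differed by genotype and, in labelled-deficient marrow, by culture, and its part in the results below was not tested. Markers of myeloid cells were present in each group. The list of macrophage genes summed to 5066 to 5282 CPM (read counts per TMM-scaled library size) in WT GM-CSF, 6984 to 7247 in WT IL-6, 5426 to 5682 in labelled-deficient GM-CSF and 8005 to 8161 in labelled-deficient IL-6 libraries. In the same order, the list of secondary and tertiary neutrophil granule genes summed to 12346 to 12559, 10013 to 10387, 12430 to 12744 and 9779 to 9872 CPM. Under GM-CSF the ranges of the latter sum overlapped between the genotypes. That sum holds Chil3, a chitinase-like protein that macrophages also make, whose 3 WT libraries under GM-CSF lay between 2222 and 2411 CPM and whose 3 labelled-deficient libraries lay between 6333 and 6510 CPM. The largest member of the macrophage sum was Spp1. The mean over macrophage members of log2(CPM + 1), relative to WT GM-CSF, was -0.02 to 0.01 in WT IL-6 libraries. It was -0.22 to -0.16 in labelled-deficient GM-CSF and -0.02 to 0.03 in labelled-deficient IL-6 libraries.

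Cysltr1, the gene named in the genotype, lies at chrX:106574346-106603679 on the minus strand (mm10). Its counts were 1259, 915 and 1718 in WT GM-CSF libraries and 1697, 1904 and 1271 in labelled-deficient GM-CSF libraries. With IL-6 they were 1872, 1575 and 1981 in WT and 1969, 1867 and 1994 in labelled-deficient marrow. The transcript was thus not lower under the label; mean levels were 53.1 and 68.1 CPM under GM-CSF and 70.5 and 79.9 CPM with IL-6 in the order WT, labelled-deficient. Reads summed over a gene may include those of a deleted or interrupted transcript, so this is no test of the allele. The marrow is called labelled-deficient throughout. IL-6 raised the transcript by a log2 fold change of 0.40 ± 0.04 in WT and 0.23 ± 0.04 in labelled-deficient marrow (± standard errors of the fit, here and below). The interaction was -0.17 ± 0.06 with an adjusted p of 0.0691 (edgeR's quasi-likelihood test, Benjamini-Hochberg over all genes tested). It passed the threshold in 12 of 19 alternative fits, with adjusted p from 0.0107 to 0.147.

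An interaction value is the log2 fold change for IL-6 in labelled-deficient marrow minus that in WT marrow, so a negative value means that labelled-deficient cells rose less, or fell more, than WT cells. It equals the genotype difference with IL-6 minus the genotype difference under GM-CSF, and it shares libraries with each of the other 4 comparisons. Each IL-6 effect also shares libraries with each genotype difference, while the pair of IL-6 effects share none and neither do the pair of genotype differences. A gene is called where its adjusted p was below 0.05. The interaction was called for 2775 genes (12.8% of those tested), 1283 higher (5.94%) and 1492 lower (6.9%). At least a 2-fold difference between the IL-6 responses was found for 185 of them, 125 higher and 60 lower. The split by direction was not stable. The number higher fell to 615 to 713 when WT GM-CSF replicate 1 or any of the 6 IL-6 libraries was left out, and the number lower rose to 2720 without WT GM-CSF replicate 2 and to 2272 without labelled-deficient IL-6 replicate 1. With no low-count filter the split was 759 higher and 2436 lower. Across the fits tried, 23.8% to 48.0% of the calls were higher, against 46.2% here. The 185 calls of at least 2-fold had the same sign in each of the 18 alternative fits that tested them all, and the 82 of them that a filter at a mean of 5 CPM kept also had it. Not all stayed called: DESeq2 called 88 of the 185, the fits without 1 library 134 to 166, the fit with no filter 157 and the fit of all 18 libraries 168. The 185 were chosen for size and these fits reuse most or all of the same libraries, so the kept signs are a description. Of the 11153 genes with a mean of at least 5 CPM in the highest group, 23.4% were called in the interaction, so a list of well-expressed genes has a higher background than the 12.8% over all genes. The counts of interaction calls in each list below stand beside that 23.4%, which covers either direction.

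Fewer genes were called for IL-6 in labelled-deficient than in WT marrow. In WT marrow IL-6 changed 6852 genes (31.7%), 14.8% of those tested upward and 16.9% downward. In labelled-deficient marrow it changed 4676 (21.6%), 8.92% upward and 12.7% downward. The fitted responses were also narrower, with a standard deviation of 0.37 on the log2 scale over the 11153 genes with a mean of at least 5 CPM in the highest group in WT and of 0.28 in labelled-deficient marrow. Across those genes the pair of IL-6 effects, which share no library, had a Pearson correlation of 0.685, and across all 21615 genes it was 0.378. These are descriptions across genes, which are not independent replicates.

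**Figure D1:**
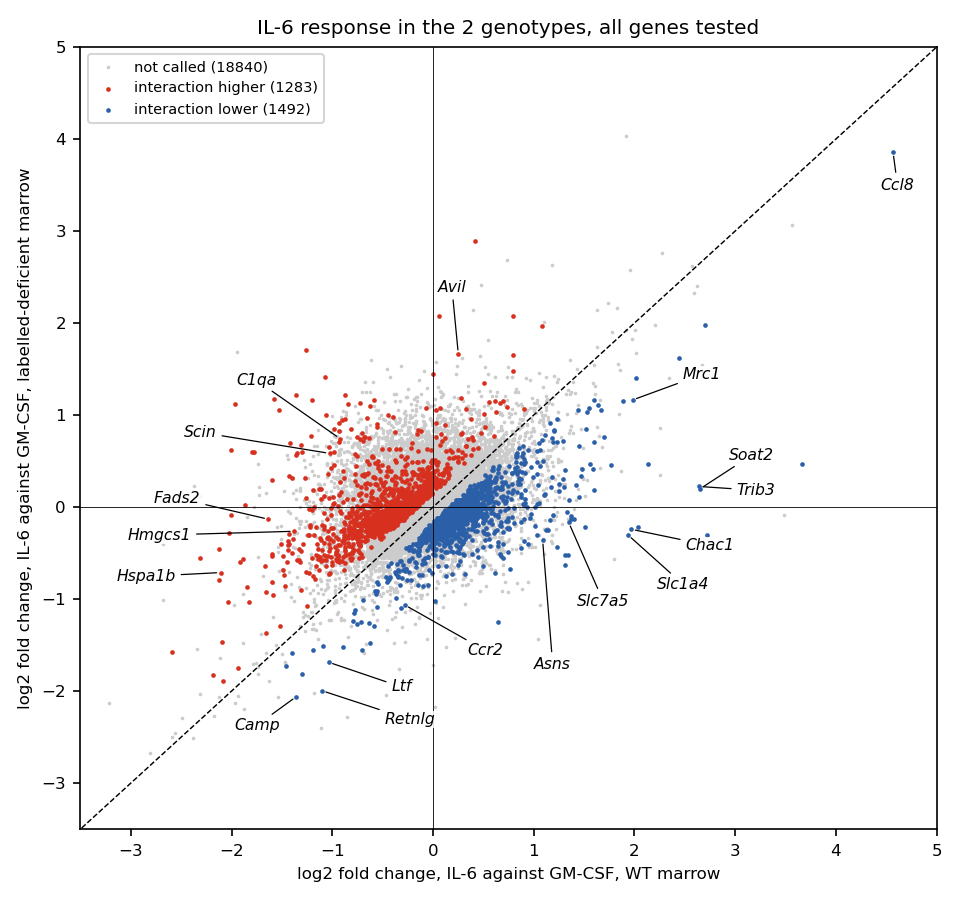
Each point is 1 of the 21615 genes tested, with its log2 fold change for IL-6 against GM-CSF in WT marrow on the x axis and in labelled-deficient marrow on the y axis; red and blue points are the 1283 and 1492 genes whose responses differed between the genotypes, and the dashed line marks equal responses. Trib3, Soat2, Chac1 and Slc1a4 lie far to the right near 0 on the y axis, while Ltf, Camp and Retnlg lie below the line in the lower left.

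The called genes took several forms. In 1114 of the 2775 (40.1%) both responses had the same sign and the labelled-deficient one was smaller, and in 696 of those 1114 the WT response was a fall. In 272 (9.8%) the labelled-deficient response had the same sign and was larger. In 235 (8.47%) the responses had opposite signs and both were called, and 174 of these 235 rose in WT and fell in labelled-deficient marrow. In the other 1154 (41.6%) the signs were opposite but at most 1 response was called. IL-6 was called in WT only for 1309 genes, in both genotypes for 905, in labelled-deficient marrow only for 484 and in neither for 77.

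Read the other way, the same genes showed how the genotype difference changed with IL-6. The genotypes differed at 8133 genes under GM-CSF (37.6%, of which 14.1% of tested genes higher and 23.5% lower in labelled-deficient marrow) and at 8738 with IL-6 (40.4%, 17.0% higher and 23.4% lower). These directions depend on scaling: with library sizes in place of TMM, 58.2% of the calls under GM-CSF and 65.7% of those with IL-6 were higher, against 37.5% and 42.1% here, and fold changes shifted by a median of 0.11 and 0.12. Of the 2775 interaction genes, 1813 (65.3%, and 53.6% to 69.3% in the other fits) had a smaller genotype difference with IL-6 than under GM-CSF. The interaction genes were chosen with the same libraries, so this share is a description.

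Most genes in 4 lists of the amino acid response were called lower in the interaction. Their list medians were higher in labelled-deficient than in WT marrow under GM-CSF, and higher with IL-6 than without it in WT marrow. Of 18 ATF4 and CHOP stress regulators tested, 13 were called lower in the interaction and 0 higher, with a median of -0.49 against 0.04 over all genes tested. Their median response was 0.66 in WT, where 16 of 18 rose, and 0.16 in labelled-deficient marrow, where 9 rose and 2 fell. The median genotype difference was 0.66 under GM-CSF and 0.16 with IL-6. The libraries are bulk, so fewer cells of a type and less RNA per cell cannot be told apart here or below.

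Trib3, a pseudokinase and textbook target of ATF4 and CHOP (chr2:152337422-152344032, minus strand), stood at 28.5, 30.9 and 29.9 CPM in WT GM-CSF libraries and at 180, 190 and 186 CPM in WT IL-6 libraries. In labelled-deficient marrow the values were 218, 220 and 224 CPM under GM-CSF and 255, 261 and 257 CPM with IL-6. The 4 groups did not overlap, and the WT IL-6 libraries lay below the labelled-deficient ones of either culture. IL-6 raised Trib3 by 2.64 ± 0.04 in WT and by 0.22 ± 0.04 in labelled-deficient marrow, an interaction of -2.42 ± 0.06 (adjusted p = 4.02e-23).

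Atf4 itself (chr15:80255184-80257541, plus strand) rose from 297, 270 and 276 CPM to 492, 499 and 481 CPM in WT. Labelled-deficient libraries held 539, 560 and 549 CPM under GM-CSF and 548, 544 and 545 CPM with IL-6, and these overlapped. The interaction was -0.81 ± 0.05 (adjusted p = 1.2e-12). Atf5, a related factor under ATF4 control, went from 186 to 205 CPM to 510 to 530 CPM in WT and from 534 to 545 CPM to 631 to 646 CPM in labelled-deficient marrow, an interaction of -1.18 ± 0.05. Ddit3, which encodes CHOP, had an interaction of -0.80 ± 0.07; its mRNA was higher with IL-6 in both genotypes, by 1.04 ± 0.05 in WT and 0.24 ± 0.04 in labelled-deficient marrow.

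Chac1, a glutathione-degrading enzyme (chr2:119351229-119354381, plus strand), moved in opposite directions. It stood at 6.77, 8.83 and 6.83 CPM in WT GM-CSF libraries and 28.8, 28.7 and 28.8 CPM with IL-6, whereas labelled-deficient libraries held 42.3, 39.0 and 41.9 CPM and then 36.3, 34.6 and 33.3 CPM. No groups overlapped. The responses were 1.97 ± 0.08 and -0.24 ± 0.06, both called. Ddit4, another stress gene of the list, did not share this pattern: IL-6 raised it by 0.80 ± 0.04 in WT and 0.75 ± 0.04 in labelled-deficient marrow, and the interaction of -0.05 ± 0.06 was not called (adjusted p = 0.624). The other members not called were Fgf21, Ppp1r15a, Cebpb and Atf3.

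Enzymes of serine, one-carbon and asparagine synthesis showed falls in labelled-deficient marrow. Of 19 tested, 11 were called lower in the interaction and 0 higher, with a median of -0.64. IL-6 raised 13 and lowered 5 in WT (median 0.30) and raised 2 and lowered 14 in labelled-deficient marrow (median -0.28). Asns, asparagine synthetase (chr6:7675169-7693254, minus strand), went from 49.5, 46.9 and 49.5 CPM to 103, 105 and 103 CPM in WT and from 156, 149 and 154 CPM to 123, 120 and 117 CPM in labelled-deficient marrow. The 4 groups were apart, with the WT IL-6 libraries between WT GM-CSF and both labelled-deficient groups. The interaction was -1.45 ± 0.06 (adjusted p = 2.42e-17), from responses of 1.09 ± 0.04 and -0.36 ± 0.04.

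Cth, which makes cysteine from cystathionine, was called in opposite directions too, with responses of 1.31 ± 0.13 and -0.63 ± 0.11. It is a low-count gene, at 3.32 to 3.45 and 8.04 to 8.84 CPM in the WT groups and at 10.8 to 13.5 and 6.23 to 8.88 CPM in the labelled-deficient groups. Mthfd2, a mitochondrial folate enzyme, responded by 0.60 ± 0.04 and -0.28 ± 0.04, and Aldh18a1, of proline synthesis, by 0.76 ± 0.04 and -0.24 ± 0.04. Psat1, of serine synthesis, fell in both genotypes, by 0.24 ± 0.04 in WT and by 0.34 ± 0.04 in labelled-deficient marrow, and its interaction was not called (adjusted p = 0.334).

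Of 15 amino acid transporters, 12 were called lower and 0 higher, with a median of -0.53. The median response was 0.58 in WT and -0.16 in labelled-deficient marrow. Slc7a5, the light chain of the large neutral amino acid transporter, stood at 178, 189 and 164 CPM in WT GM-CSF libraries and at 447, 455 and 442 CPM with IL-6. Labelled-deficient libraries held 544, 530 and 528 CPM under GM-CSF and 490, 468 and 472 CPM with IL-6. The genotypes were 1.60 ± 0.04 apart under GM-CSF and 0.09 ± 0.04 apart with IL-6, the latter not called (adjusted p = 0.0786).

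Slc1a4, a neutral amino acid transporter (chr11:20302180-20332713, minus strand), had 4.80 to 5.32 and then 18.1 to 20.1 CPM in WT and 23.9 to 25.8 and then 20 to 20.4 CPM in labelled-deficient marrow. With IL-6 the genotypes overlapped. Its interaction was -2.24 ± 0.10, and that of Slc6a9, a glycine transporter at 1.32 to 10.2 CPM over the 12 libraries, was -2.26 ± 0.17. Slc7a1, the main cationic amino acid transporter, responded by 1.01 ± 0.06 in WT and -0.20 ± 0.05 in labelled-deficient marrow. Slc7a2, a cationic transporter that also feeds arginine to arginase, rose in both, by 1.06 ± 0.04 and 0.69 ± 0.04.

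The aminoacyl-tRNA synthetases, which charge tRNAs with their amino acids, had a similar profile. Of 20 cytosolic synthetases 16 were called lower and only Qars higher (0.27). IL-6 raised 15 and lowered 2 in WT, with a median of 0.42, and raised 0 and lowered 12 in labelled-deficient marrow, with a median of -0.18. At an adjusted p under 0.05 the genotypes differed upward for 18 of 20 under GM-CSF (median 0.81) and for 12 with IL-6 (median 0.13). Aars, the alanine enzyme, had 125 to 137 CPM and then 247 to 268 CPM in WT, and 291 to 296 CPM and then 275 to 288 CPM in labelled-deficient marrow. Mars, for methionine, responded by 0.63 ± 0.04 and -0.25 ± 0.04, and Iars, for isoleucine, by 0.70 ± 0.04 and -0.28 ± 0.04. Mars and Ddit3 overlap at their ends on opposite strands, and the strand setting of the counting is not stated, so reads in the overlap are uncertain.

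Promoter sequences are shown for called members of these lists because ATF4 and its partners are known to bind a composite C/EBP-ATF element. RefSeq promoter windows (build GRCm38.p6, 250 bases before to 50 after each gene start) were searched on both strands for TGATGNAA. A match was found for 1219 of 27025 genes with a window (4.51%), for 7 of 17 stress regulators (41.2%), 4 of 17 serine and one-carbon genes (23.5%), 3 of 10 transporters (30%) and 5 of 12 synthetases (41.7%). The lists hold textbook ATF4 targets, so the element is not independent of how they were made. Of all genes called lower in the interaction 49 of 1141 with a window had a match (4.29%), and of those called higher 22 of 935 (2.35%), against 410 of 13171 tested genes (3.11%). In Trib3, Slc1a4, Iars and Yars the match lay past the start and is not printed. The stretches below lie before the RefSeq start, read 5′ to 3′ on the strand of the gene, with the element in capitals. The stretch of Slc7a11 also holds a match on the opposite strand, which is left in lower case. A match describes letters and is neither a site nor a cause. The positions are chr2:119351023-119351082 (plus strand) for Chac1, chr7:126625547-126625606 (minus) for Nupr1, chr3:50443646-50443705 (minus) for Slc7a11, chr6:55037945-55038000 (plus) for Gars and chr15:11399659-11399699 (minus) for Tars.
Chac1: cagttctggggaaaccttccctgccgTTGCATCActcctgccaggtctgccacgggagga
Nupr1: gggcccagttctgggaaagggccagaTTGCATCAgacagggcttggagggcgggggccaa
Slc7a11: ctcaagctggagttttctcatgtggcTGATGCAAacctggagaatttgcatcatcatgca
Gars: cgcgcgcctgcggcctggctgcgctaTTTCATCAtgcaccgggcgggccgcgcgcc
Tars: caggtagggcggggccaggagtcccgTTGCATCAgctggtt

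Of these genes, 4 were not yet described, and each was called lower in the interaction. Nupr1, a stress-induced nuclear protein, rose by 1.18 ± 0.05 in WT and 0.32 ± 0.05 in labelled-deficient marrow. The glycine enzyme Gars rose by 0.51 ± 0.04 in WT and fell by 0.28 ± 0.04 in labelled-deficient marrow, and the threonine enzyme Tars rose by 0.31 ± 0.04 and fell by 0.35 ± 0.04. Slc7a11, the cystine transporter, rose by 0.39 ± 0.05 in WT, and its response was not called in labelled-deficient marrow (0.03 ± 0.05), where its libraries overlapped.

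**Figure D2:**
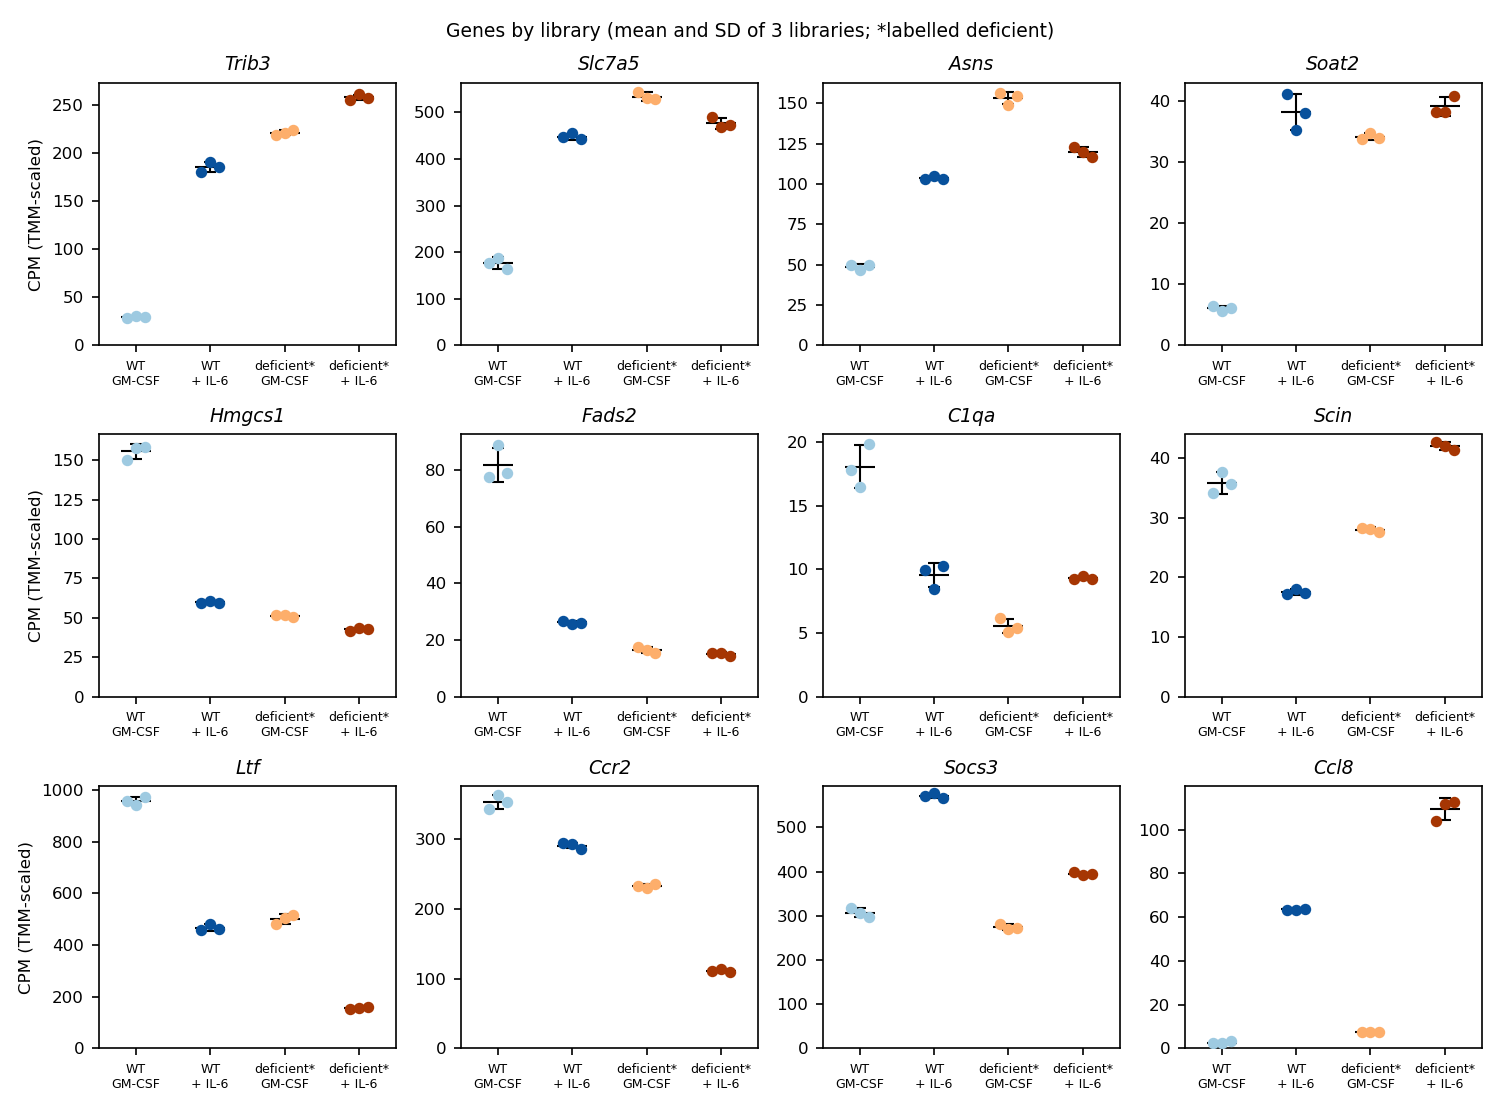
Each panel shows the CPM of 1 gene on a linear axis from 0 in each of the 12 libraries, in 4 groups of 3 points from WT GM-CSF to labelled-deficient IL-6, with the mean and SD of each group. For Trib3, Slc7a5 and Asns the WT GM-CSF libraries stand alone at the bottom, for Hmgcs1 and Fads2 they stand alone at the top, and Ltf and Ccr2 are lowest in the labelled-deficient IL-6 libraries.

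Chaperones of the endoplasmic reticulum, which fold secreted proteins and belong to another arm of the stress response, went the opposite way. Of 18 tested, 13 were called higher in the interaction and 2 lower, with a median of 0.32. In WT 11 fell with IL-6 and 1 rose, and in labelled-deficient marrow 8 rose and 3 fell. Calr, calreticulin (chr8:84841850-84846934, minus strand), went from 1307, 1297 and 1314 CPM to 898, 950 and 923 CPM in WT, and from 1052, 1033 and 1091 CPM to 1246, 1229 and 1240 CPM in labelled-deficient marrow. The groups did not overlap, and the order of the genotypes was turned by IL-6: labelled-deficient marrow was lower by 0.30 ± 0.03 under GM-CSF and higher by 0.42 ± 0.03 with IL-6. The interaction was 0.73 ± 0.05 (adjusted p = 1.4e-12).

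Pdia6, a disulfide isomerase, responded by -0.40 ± 0.04 in WT and 0.15 ± 0.04 in labelled-deficient marrow. Sdf2l1 fell in both, by 1.01 ± 0.04 and by 0.23 ± 0.04. The members called lower in the interaction were Herpud1, of ER-associated degradation, and Xbp1, a transcription factor of the unfolded protein response.

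Of 12 inducible heat shock chaperones 5 were called higher and 1 lower, with a median of 0.18. Among well-expressed genes 23.4% were called in either direction. Hspa1b, an inducible Hsp70, went from 44.5 to 48.5 CPM to 9.84 to 11.2 CPM in WT and from 22.4 to 24.6 CPM to 13.9 to 14.9 CPM in labelled-deficient marrow, an interaction of 1.40 ± 0.10. Its near-identical neighbour Hspa1a had an interaction of 1.33 ± 0.14, and reads may be split uncertainly between them. Hsph1 fell by 0.69 ± 0.05 in WT and by 0.18 ± 0.05 in labelled-deficient marrow.

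In cholesterol synthesis all 20 genes tested were called higher in the interaction, with a median of 0.81. IL-6 lowered 20 of 20 in WT (median -1.15) and 16 of 20 in labelled-deficient marrow (median -0.35). Under GM-CSF all 20 were lower in labelled-deficient marrow (median -1.27), and with IL-6 19 were (median -0.56). Without 1 library at a time, or in the other fits, 18 to 20 were called.

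Hmgcs1, the cytosolic HMG-CoA synthase (chr13:119690379-119708260, plus strand), stood at 150, 158 and 159 CPM in WT GM-CSF libraries and at 59.6, 60.8 and 59.3 CPM with IL-6. Labelled-deficient libraries held 51.7, 51.7 and 50.5 CPM under GM-CSF and 41.9, 43.5 and 42.9 CPM with IL-6. The WT GM-CSF libraries stood well above the other 9, which were also apart by group. The interaction was 1.11 ± 0.06 (adjusted p = 3.08e-14), from responses of -1.38 ± 0.04 and -0.26 ± 0.05.

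Fdft1, squalene synthase, and Lss, lanosterol synthase, had interactions of 1.14 ± 0.08 and 1.02 ± 0.08. Lss fell by 1.08 ± 0.05 in WT, and in labelled-deficient marrow its libraries overlapped between the cultures (23.6 to 27.8 CPM).

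A sterol regulatory element, searched as TCACNCCAC on both strands, was found in 1 of 15 cholesterol genes with a promoter window and in 1.44% of all genes. It was found in 0 of 12 genes of sterol sensing, uptake and efflux and in 1 of 11 of fatty acid synthesis and desaturation. The match in Hmgcs1 is printed since SREBP regulation of this gene is textbook knowledge. That match lies before the start at chr13:119690188-119690248 (plus strand), and the capitals mark the element.
Hmgcs1: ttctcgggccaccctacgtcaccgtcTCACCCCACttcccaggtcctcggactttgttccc

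Of 14 genes of fatty acid synthesis and desaturation 9 were called higher and 0 lower (median 0.46). Fads2, a desaturase of polyunsaturated fatty acids (chr19:10062765-10101746, minus strand), had 77.5, 88.8 and 78.9 CPM in WT GM-CSF and 26.8, 25.7 and 26.2 CPM in WT IL-6 libraries. In labelled-deficient marrow it had 17.7, 16.5 and 15.4 CPM and then 15.4, 15.6 and 14.5 CPM, which overlapped. The response was -1.63 ± 0.06 in WT and was not called in labelled-deficient marrow (-0.13 ± 0.07, adjusted p = 0.217), an interaction of 1.5 ± 0.09. Fasn, fatty acid synthase, fell by 1.49 ± 0.05 and by 0.54 ± 0.06, and Scd1, stearoyl-CoA desaturase, fell by 0.99 ± 0.05 and by 0.30 ± 0.05.

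Genes of sterol sensing, uptake and efflux were mixed, with 7 of 18 called higher and 1 lower (median 0.12), and 4 higher without WT GM-CSF replicate 1. The share called in either direction among well-expressed genes was 23.4%. Insig1, which retains the SREBP complex in the ER, had an interaction of 0.51 ± 0.08 and Stard4, a sterol carrier, of 0.53 ± 0.06.

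Soat2, an acyltransferase that esterifies cholesterol (chr15:102150526-102163469, plus strand), was the 1 member called lower and had the largest negative interaction among the genes named by size, at -2.45 ± 0.09. It stood at 6.42, 5.68 and 6.15 CPM in WT GM-CSF and at 41.2, 35.4 and 38.1 CPM in WT IL-6 libraries. Labelled-deficient libraries held 33.8, 34.8 and 34.0 CPM and then 38.3, 38.3 and 40.9 CPM. WT GM-CSF stood alone, and with IL-6 the genotypes overlapped. Igfbp6, which lies next to Soat2 on the same strand, had an interaction of -1.42 ± 0.16 at 1.71 to 8.23 CPM.

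**Figure D3:**
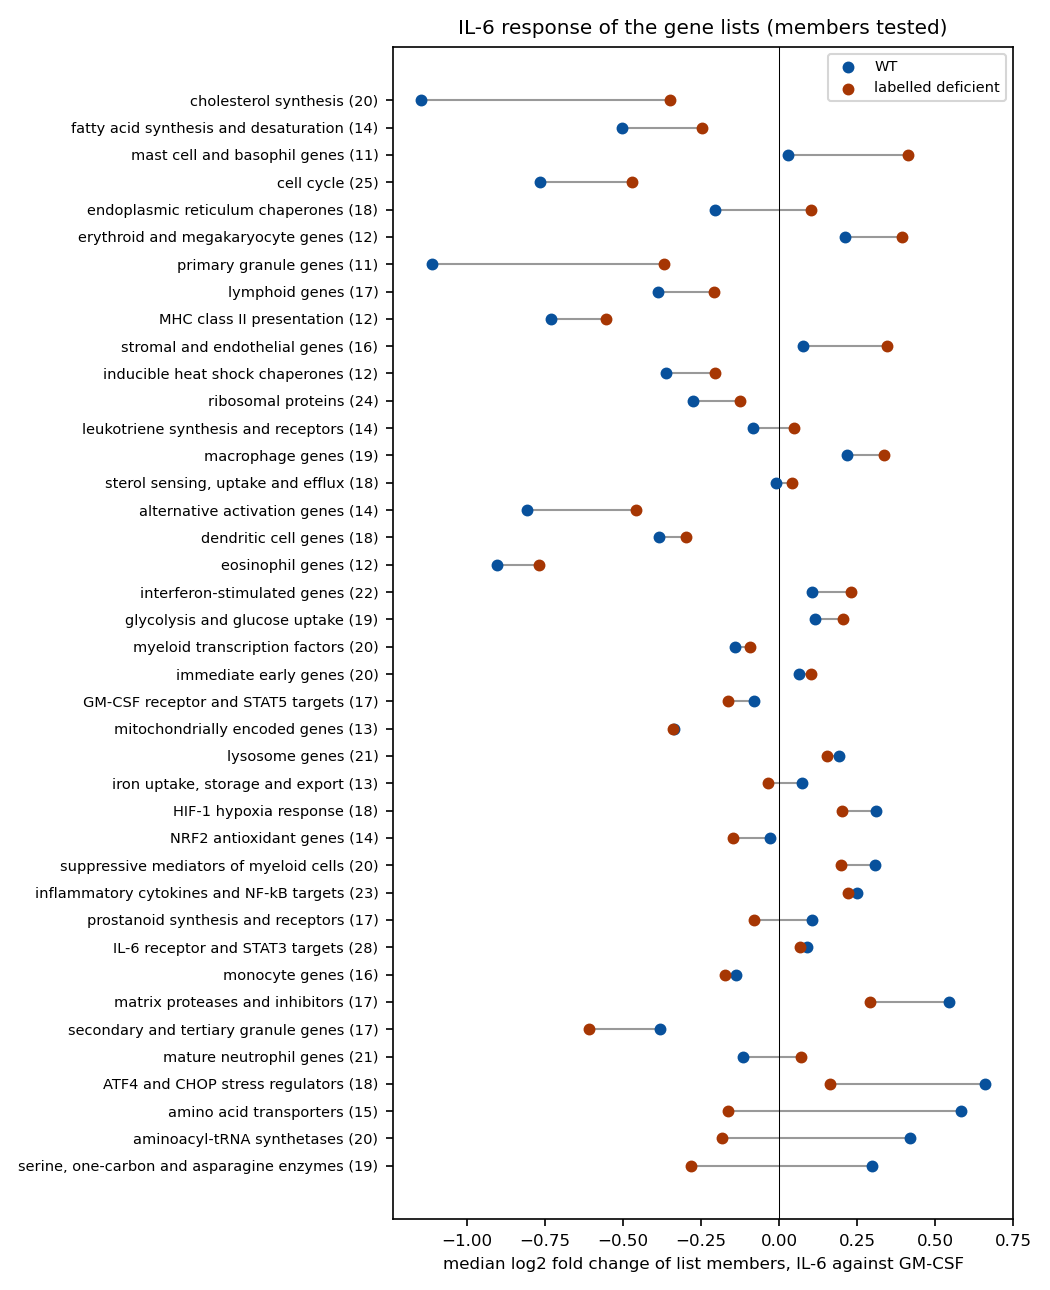
For each of the 40 gene lists the median log2 fold change for IL-6 is drawn for WT and for labelled-deficient marrow, joined by a line. The 4 lists of the amino acid response have WT medians of 0.30 to 0.66 and labelled-deficient medians of -0.28 to 0.16, and cholesterol synthesis has medians of -1.15 and -0.35.

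Of 28 IL-6 receptor and STAT3 target genes 14 were called lower in the interaction and 1 higher, with a median of -0.18. The median response of the list was 0.09 in WT and 0.07 in labelled-deficient marrow, against -0.03 and 0.01 over all genes tested, and 13 rose and 4 fell in WT and 9 rose and 6 fell in labelled-deficient marrow. The mean over list members of log2(CPM + 1), relative to WT GM-CSF, was 0.235 to 0.254 in WT IL-6 libraries. In labelled-deficient libraries it was -0.048 to 0.0002 under GM-CSF and 0.021 to 0.072 with IL-6. The list holds S100a9, Myc and Hif1a, which other pathways also control. A STAT element, searched as TTCNNNGAA in promoter windows, was found in 3 of 24 members with a window (12.5%) and in 9.55% of all genes.

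Socs3, the feedback inhibitor of gp130 signalling (chr11:117966079-117970047, minus strand), rose in both genotypes. Its values were 318, 306 and 297 CPM and then 572, 578 and 566 CPM in WT, and 281, 270 and 272 CPM and then 398, 392 and 394 CPM in labelled-deficient marrow. The groups were apart. The rise was 0.90 ± 0.04 in WT and 0.53 ± 0.04 in labelled-deficient marrow, an interaction of -0.37 ± 0.05 (adjusted p = 3.33e-06).

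Stat3 rose in both, by 0.35 ± 0.04 and 0.27 ± 0.04, and its interaction was not called (-0.08 ± 0.06, adjusted p = 0.436). Il6st rose by 0.78 ± 0.05 and 0.36 ± 0.05, an interaction of -0.42 ± 0.07. Il6ra rose by 0.39 ± 0.05 in WT, while its response in labelled-deficient marrow was not called (0.13 ± 0.05, adjusted p = 0.102); its interaction of -0.26 ± 0.08 was lost without labelled-deficient GM-CSF replicate 3 (-0.23, adjusted p = 0.0614) and was -0.40 without WT GM-CSF replicate 2.

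Timp1, a metalloproteinase inhibitor, was the list member with the smallest p. It had 11.3 to 13.0 and then 28.0 to 30.2 CPM in WT, and 66.1 to 69.5 and then 77.4 to 83.0 CPM in labelled-deficient marrow, an interaction of -1 ± 0.08. Hif1a rose by 0.30 ± 0.04 in WT and fell by 0.23 ± 0.04 in labelled-deficient marrow. Lcn2, a neutrophil siderophore-binding protein, fell by 0.56 ± 0.04 in WT and was not called in labelled-deficient marrow (-0.04 ± 0.04), an interaction of 0.52 ± 0.05.

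Of 20 suppressive mediators of myeloid cells IL-6 raised 11 and lowered 3 in WT and raised 12 and lowered 4 in labelled-deficient marrow. Over all genes tested IL-6 was called for 31.7% in WT and 21.6% in labelled-deficient marrow. In the interaction 7 mediators were called lower and 1 higher, beside 23.4% called in either direction among well-expressed genes. Their median was -0.07, against 0.04 over all genes tested. Arg1, arginase (chr10:24915221-24927484, minus strand), had 2156, 2183 and 2187 CPM and then 3836, 4008 and 3867 CPM in WT, and 3297, 3194 and 3381 CPM and then 3973, 3891 and 3892 CPM in labelled-deficient marrow. The genotypes were apart under GM-CSF and overlapped with IL-6. The rise was 0.84 ± 0.03 in WT and 0.25 ± 0.03 in labelled-deficient marrow (interaction -0.59 ± 0.04, adjusted p = 3.6e-11).

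Nos2, the inducible nitric oxide synthase, started and ended lower in labelled-deficient marrow. It went from 131 to 163 CPM to 449 to 472 CPM in WT and from 105 to 110 CPM to 231 to 240 CPM in labelled-deficient marrow, an interaction of -0.52 ± 0.07. The checkpoint ligand gene Cd274 rose by 0.60 ± 0.04 and 0.41 ± 0.04, an interaction of -0.19 ± 0.05 (adjusted p = 0.0136).

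Chemokines and cytokines gave 6 of 23 called lower and 0 higher (median -0.10), near the share of 23.4% called among well-expressed genes, and 10 lower without labelled-deficient IL-6 replicate 1. Cxcl3, a neutrophil attractant, had 87.9 to 97.1 and then 222 to 224 CPM in WT, and 263 to 272 and then 289 to 310 CPM in labelled-deficient marrow (interaction -1.08 ± 0.06). The transcript of Il6 itself rose by 1.35 ± 0.09 in WT, from 3.70 to 4.32 CPM to 10.3 to 10.9 CPM, and was not called in labelled-deficient marrow, where its libraries overlapped at 23.8 to 26.9 CPM. Ccl8, a monocyte attractant, rose by 4.57 ± 0.08 and 3.86 ± 0.07, an interaction of -0.71 ± 0.13.

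Among leukotriene genes 3 of 14 tested were called higher and 1 lower (median 0.15), with 2 to 4 higher and 1 to 3 lower over the alternatives. These calls stand beside 23.4% called in either direction among well-expressed genes. Lta4h, which makes leukotriene B4, fell in WT from 274, 280 and 277 CPM to 143, 146 and 143 CPM and stayed at 95.4 to 99.2 CPM in the 6 labelled-deficient libraries, an interaction of 0.95 ± 0.05. Ltc4s, which makes the cysteinyl leukotriene C4, was not called in WT (-0.14 ± 0.07) and rose by 0.41 ± 0.08 in labelled-deficient marrow. Pla2g4a, the phospholipase that releases arachidonic acid, rose by 0.78 ± 0.05 and 0.37 ± 0.05. Alox5, 5-lipoxygenase, had an interaction of 0.24 ± 0.06 that was not called without any 1 of 6 libraries (WT GM-CSF replicates 1 and 2, WT IL-6 replicates 1 and 3, labelled-deficient IL-6 replicates 1 and 2; 0.15 to 0.19). Neither Alox5ap (adjusted p = 0.916) nor the second receptor gene Cysltr2 (adjusted p = 0.664) was called. Of 17 prostanoid genes 1 was called higher and 3 lower, near the share of 23.4% called among well-expressed genes. The PGE2 receptor genes Ptger2 and Ptger3 had interactions of -1.07 ± 0.08 and -1.07 ± 0.11.

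Some neutrophil genes showed the less common pattern of a larger response in labelled-deficient marrow. Of 17 genes of secondary and tertiary granules 11 were called lower in the interaction and 2 higher, with a median of -0.25. Their median response was -0.38 in WT and -0.61 in labelled-deficient marrow, and their median genotype difference was -0.93 under GM-CSF and -1.37 with IL-6. Ltf, lactoferrin (chr9:111019271-111042767, plus strand), fell from 956, 942 and 974 CPM to 458, 481 and 461 CPM in WT and from 481, 506 and 516 CPM to 151, 156 and 160 CPM in labelled-deficient marrow. The labelled-deficient IL-6 libraries were lowest, and WT IL-6 overlapped with labelled-deficient GM-CSF. The falls were 1.04 ± 0.04 and 1.69 ± 0.04 in size, an interaction of -0.65 ± 0.05 (adjusted p = 1.66e-10).

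Camp, the cathelicidin, had 133 to 166 and then 57.2 to 57.8 CPM in WT and 32.8 to 34.9 and then 7.67 to 8.58 CPM in labelled-deficient marrow (interaction -0.70 ± 0.10). Cd177, a neutrophil surface protein, had an interaction of -0.52 ± 0.06. Lcn2, also on the list of secondary and tertiary granule genes, went the other way, with an interaction of 0.52 ± 0.05. It fell by 0.56 ± 0.04 in WT, and its response in labelled-deficient marrow was not called. Of 21 mature neutrophil genes 10 were called lower and 3 higher (median -0.26). Their median response was -0.11 in WT, where 7 rose and 10 fell, and 0.07 in labelled-deficient marrow, where 8 rose and 8 fell. The median of this list thus showed no larger fall in labelled-deficient marrow, but the list mean did. The mean over members of log2(CPM + 1), relative to WT GM-CSF, was -0.12 to -0.07 in WT IL-6 libraries. It was -0.93 to -0.90 in labelled-deficient GM-CSF and -1.14 to -1.11 in labelled-deficient IL-6 libraries. Ifitm1 had a positive interaction, at 0.74. Retnlg was at 102 to 116 and then 51.1 to 52.1 CPM in WT and at 17.2 to 18.7 and then 4.23 to 4.64 CPM in labelled-deficient marrow, an interaction of -0.89 ± 0.10. S100a8 fell by 0.96 ± 0.04 and by 1.01 ± 0.04, and its interaction was not called (adjusted p = 0.723), whereas its partner S100a9 had -0.31 ± 0.06.

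Primary granule genes, made earlier in neutrophil development, went the other way, with 6 of 11 called higher and 1 lower (median 0.22). Prtn3, proteinase 3, fell from 252 to 267 CPM to 109 to 113 CPM in WT and from 39.7 to 41.2 CPM to 32.2 to 33.0 CPM in labelled-deficient marrow, an interaction of 0.93 ± 0.06. Elane, neutrophil elastase, had 0.52 ± 0.06. Mpo, myeloperoxidase, fell by 0.39 ± 0.04 and by 0.37 ± 0.04, with no call (adjusted p = 0.875). Nkg7, a granule protein of cytotoxic cells, was called at 0.79, was not called in 10 of 19 other fits and was at 0.46 without labelled-deficient IL-6 replicate 1.

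Of 25 cell cycle genes, 18 were called higher in the interaction and 0 lower, with a median of 0.40. IL-6 lowered 24 in WT (median -0.77) and 21 in labelled-deficient marrow (median -0.47), and the median genotype difference was -1.27 under GM-CSF and -0.93 with IL-6. Top2a, a topoisomerase of dividing cells, had 274, 285 and 277 CPM and then 154, 152 and 149 CPM in WT, and 96.1, 95.9 and 99.5 CPM and then 70.5, 69.8 and 69.7 CPM in labelled-deficient marrow. The groups were apart in that order, and the interaction was 0.41 ± 0.05. Mcm7, a subunit of the replicative helicase, had 0.63 ± 0.08. The summed CPM of the list was 1897 to 1995, 1141 to 1174, 849 to 865 and 636 to 652 in the 4 groups in the same order, and its part in the amino acid and sterol results was not tested.

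**Figure D4:**
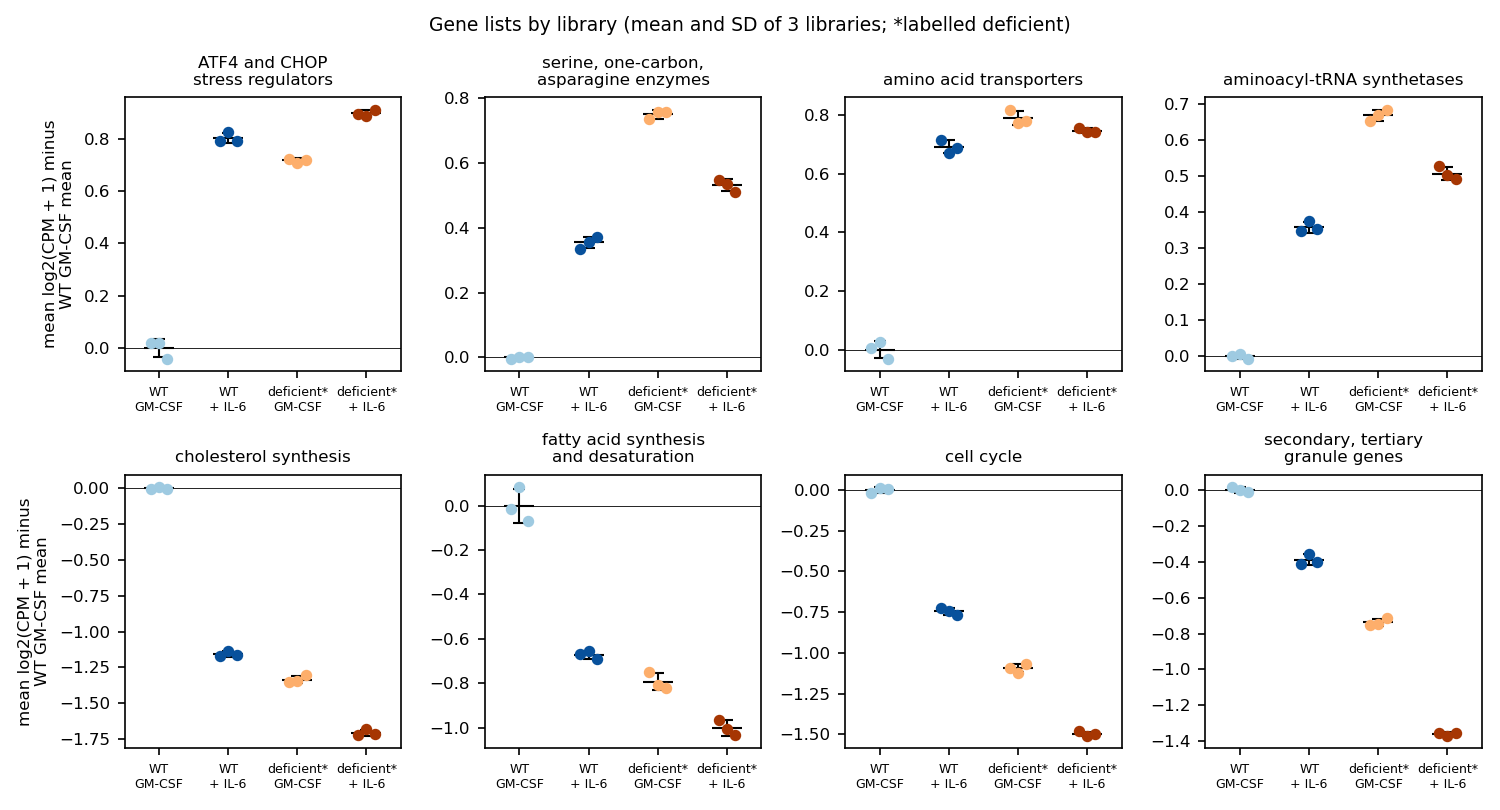
For 8 gene lists the mean over tested members of log2(CPM + 1), relative to the mean of the WT GM-CSF libraries, is shown for each of the 12 libraries, with the mean and SD of each group. Replicates lie close together, the stress regulator list is at 0.71 to 0.91 in the 9 libraries other than WT GM-CSF, and the secondary granule list falls from about 0 in WT GM-CSF to -1.35 to -1.37 in labelled-deficient IL-6 libraries.

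Monocyte and macrophage genes split by member. Their calls stand beside 23.4% called in either direction among well-expressed genes. Of 16 monocyte genes 8 were called lower and 3 higher, and 1 higher without WT GM-CSF replicate 1, WT IL-6 replicate 2 or 3, labelled-deficient GM-CSF replicate 2 or labelled-deficient IL-6 replicate 2 or 3. Ccr2, the receptor of monocytes for CCL2 (chr9:124101950-124113557, plus strand), had 344, 364 and 353 CPM and then 294, 293 and 286 CPM in WT, and 233, 230 and 236 CPM and then 112, 113 and 109 CPM in labelled-deficient marrow. Every group was apart from the others, and the labelled-deficient IL-6 libraries were lowest. The responses were -0.28 ± 0.04 and -1.06 ± 0.04, an interaction of -0.78 ± 0.05. Fn1, fibronectin, rose by 0.39 ± 0.06 in WT and fell by 0.35 ± 0.06 in labelled-deficient marrow. Vcan, versican, rose in both, by 1.66 ± 0.05 and 1.05 ± 0.05.

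Of 19 macrophage genes 6 were called higher and 4 lower, beside 23.4% called in either direction among well-expressed genes. The number higher was 3 without WT GM-CSF replicate 2 or any 1 of the 6 IL-6 libraries, and the number lower was 2 without labelled-deficient GM-CSF replicate 3. The 3 chains of complement C1q, neighbours on chromosome 4, had the largest positive values. C1qa (chr4:136895917-136898803, minus strand) stood at 17.8, 16.5 and 19.8 CPM in WT GM-CSF and at 9.95, 8.49 and 10.2 CPM in WT IL-6 libraries. Labelled-deficient libraries held 6.19, 5.09 and 5.42 CPM and then 9.25, 9.50 and 9.21 CPM. The genotypes were apart under GM-CSF and overlapped with IL-6. The responses were -0.92 ± 0.09 and 0.74 ± 0.10, both called, and the interaction was 1.66 ± 0.14 (adjusted p = 1.72e-10). C1qb and C1qc had interactions of 1.77 ± 0.15 and 1.59 ± 0.15.

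Mrc1, the mannose receptor, rose in both genotypes, from 93.1 to 107 CPM to 390 to 404 CPM in WT and from 213 to 219 CPM to 467 to 496 CPM in labelled-deficient marrow (interaction -0.82 ± 0.06). The list of alternative activation genes, to which Mrc1 also belongs, gave 7 of 14 higher and 4 lower (median 0.12). That stands beside 23.4% called in either direction among well-expressed genes. The number higher was 4 in the fit of all 18 libraries and 6 or 7 in the others, and the median ranged from 0.0001 to 0.18. Its chemokine Ccl17 had 66.4 to 80.7 and then 11.3 to 12.2 CPM in WT and 121 to 129 and then 40.4 to 42.9 CPM in labelled-deficient marrow, an interaction of 1.02 ± 0.09. Retnla, a secreted type 2 marker, had 0.78 ± 0.07, while Tgm2, transglutaminase 2, had -0.72 ± 0.05.

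MHC class II genes fell with IL-6 in both genotypes, 10 of 12 in each. In the interaction 6 were called higher and 1 lower, and 3 higher without WT GM-CSF replicate 1 or any 1 of the 6 IL-6 libraries. Beside this, 23.4% of well-expressed genes were called in either direction. H2-Aa fell by 1.17 ± 0.04 in WT and by 0.79 ± 0.04 in labelled-deficient marrow.

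Most mast cell and basophil genes tested were called higher with IL-6 in labelled-deficient marrow. Of 11 tested, 6 were called higher in the interaction and 0 lower (median 0.45), and IL-6 raised 7 of 11 in labelled-deficient marrow against 1 in WT. Over all genes tested IL-6 raised 8.92% in labelled-deficient and 14.8% in WT marrow. Summed CPM of the list was 366 to 380 and then 341 to 344 in WT and 244 to 247 and then 301 to 305 in labelled-deficient marrow. The largest member of that sum was Gata2. Kit, the stem cell factor receptor, had 14.3, 14.6 and 15.1 CPM and then 14.8, 17.0 and 16.0 CPM in WT, which overlapped, and 13.5, 12.9 and 11.4 CPM and then 23.1, 24.9 and 22.8 CPM in labelled-deficient marrow. Its interaction was 0.78 ± 0.10 (adjusted p = 2.67e-06). Hdc, which makes histamine, had 0.85 ± 0.08, and Cpa3, a mast cell protease, 0.45 ± 0.09. No member was at 0 counts in all 12 libraries, though Mcpt4, Mcpt1 and Mrgprb2 had too few counts to be tested.

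Lists of other cell types gave small counts that moved with single libraries. Eosinophil genes gave 2 of 12 higher and 0 lower, with 1 or 2 higher over the alternatives, and their summed CPM fell from 1030 to 1105 to 489 to 506 in WT and from 655 to 706 to 254 to 263 in labelled-deficient marrow. Erythroid and megakaryocyte genes gave 2 of 12 higher and 0 lower, and 0 or 1 higher without any 1 of 10 libraries, all but WT GM-CSF replicate 3 and labelled-deficient GM-CSF replicate 1. Lymphoid genes gave 3 of 17 higher and 0 lower, with 1 to 4 higher over the alternatives. These shares stand beside 5.94% called higher over all genes and 23.4% called in either direction among well-expressed genes. Stromal and endothelial genes gave 0 of 16 in either direction by edgeR's quasi-likelihood test, and 0 or 1 higher and 0 to 2 lower over the alternatives. At an unadjusted p under 0.05 in that test there were 4 of 16, beside 5248 of all 21615 genes tested. Summed CPM of lymphoid genes was 370 to 384 and then 314 to 320 in WT. In labelled-deficient marrow it was 215 to 226 and then 214 to 221. For stromal and endothelial genes it was 238 to 254 and then 405 to 409 in WT. In labelled-deficient marrow that sum was 253 to 260 and then 406 to 418. Erythroid and megakaryocyte genes summed to 580 to 621 and then 843 to 863 in WT. Their labelled-deficient sums were 602 to 638 and then 978 to 1016. The largest members of these sums were Ighm, Pecam1 and Itga2b, in that order. The part of a shift in cell types in the results above was not tested.

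Outside the lists, Scin, an actin-severing protein (chr12:40059769-40134228, minus strand), fell in WT from 34.1, 37.7 and 35.6 CPM to 17.2, 18.1 and 17.4 CPM and rose in labelled-deficient marrow from 28.3, 28.1 and 27.6 CPM to 42.7, 41.9 and 41.4 CPM. The groups were apart, and the interaction was 1.61 ± 0.08 (adjusted p = 1.02e-15). Its relative Avil, advillin, rose in both genotypes and more in labelled-deficient marrow, by 0.25 ± 0.05 in WT and by 1.66 ± 0.06 from 23.3 to 26.1 CPM to 74.4 to 80.0 CPM. With IL-6 the genotypes overlapped for Avil.

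The other genes named by size were low. Fxyd4, a regulator of the sodium pump, had an interaction of 1.45 ± 0.19 at 2.31 to 9.95 CPM. AY761185, of a defensin-like family whose near-identical members make counts uncertain, had 1.89 ± 0.16. Dynlt1c, also of a family of near-identical copies, had 1.84 ± 0.46 and 1.06 without WT GM-CSF replicate 3, where it stood at 9.99 CPM against 3.49 and 3.53 CPM in the other WT GM-CSF libraries. Dner, Extl1 and Glrp1 had interactions of -1.83 ± 0.21, -1.5 ± 0.18 and -1.48 ± 0.15, each under 12 CPM.

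**Figure D5:**
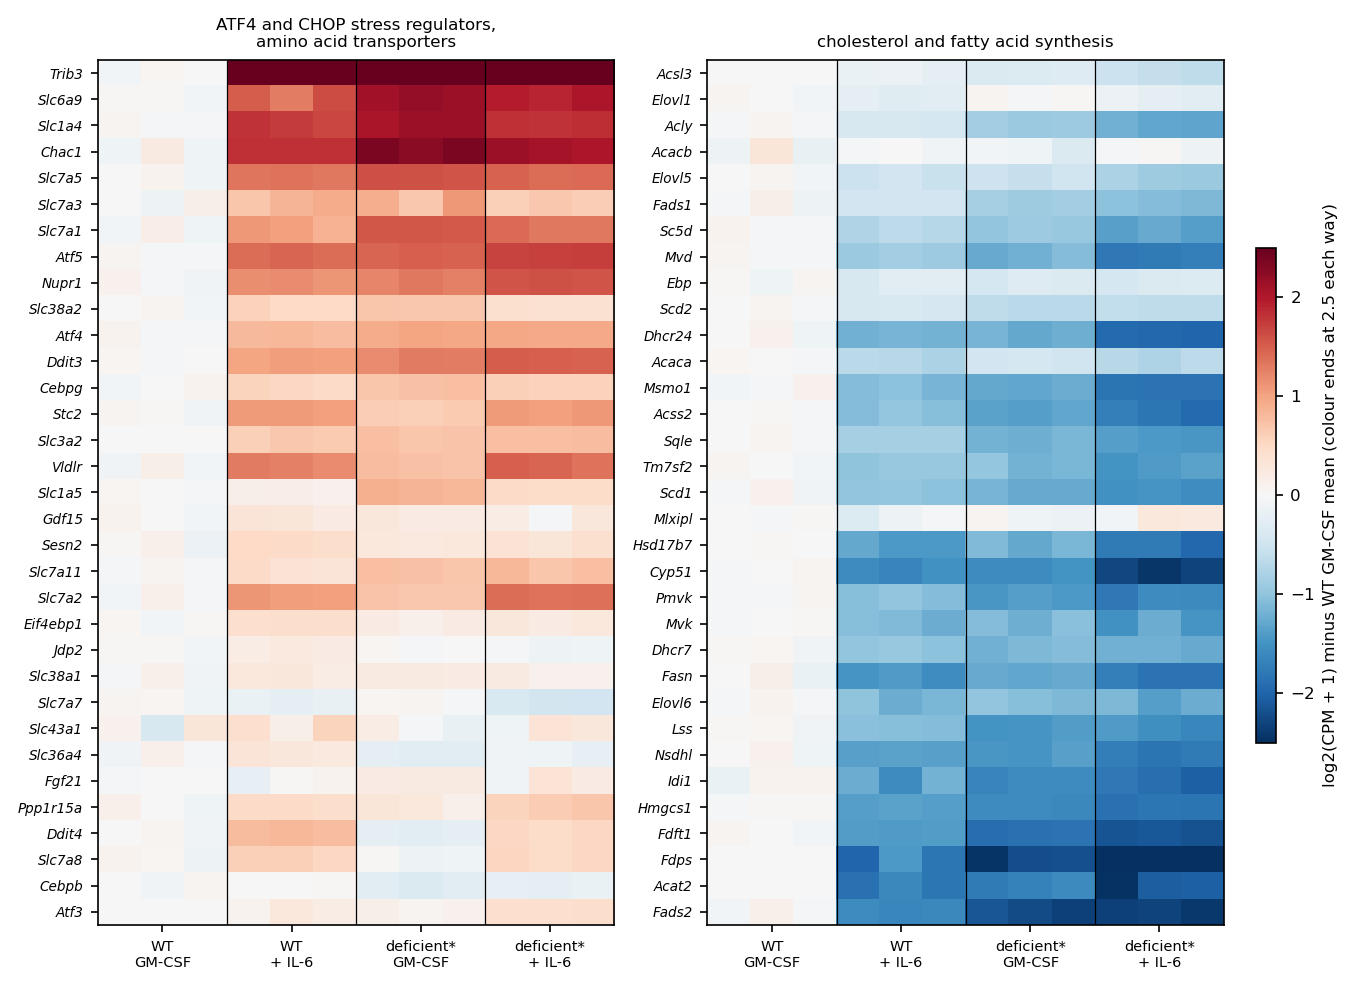
The heat map shows log2(CPM + 1) minus the mean of the WT GM-CSF libraries for tested stress regulators and amino acid transporters (left) and cholesterol and fatty acid synthesis genes (right) in each of the 12 libraries, with colours ending at 2.5 in each direction. Trib3, Slc6a9, Slc1a4 and Chac1 are high in the 9 libraries other than WT GM-CSF, Ddit4 and Slc7a7 are not high throughout, and Hmgcs1, Fdft1 and Fads2 are low in those 9.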

How the data were processed

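RNA-seq read counts per gene were used for 12 libraries. Per the submitters' processing notes the authors' tools were HISAT2 2.1.0 and HTSeq 0.13.5 with the mm10 build, and the deposited values are raw read counts; the notes also name DESeq2 1.34.0. The annotation and strand setting of the counting are not given in the sources used here, so counts of overlapping, antisense and near-identical genes are uncertain. Per the labels' protocols, libraries were made from poly(A) RNA. Left out were 5 summary lines, 26248 numbered entries (0.0399% to 0.0789% of feature counts) and 97 spike-in entries with 0 counts.

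Genes that passed edgeR's expression filter were tested with edgeR's quasi-likelihood test (edgeR 4.0.16, limma 3.58.1, R 4.3.3), with TMM factors of 0.947 to 1.05, 4 group means and Benjamini-Hochberg adjustment over the 21615 genes, at a threshold of 0.05. Errors written ± are standard errors of the fit. Alternatives were DESeq2 1.42.0, other scalings and filters, all 18 libraries, a replicate block and leaving out each library. On simulated data for the interaction (20987 genes), 38 of 50 changes of 4-fold, 31 of 50 of 2-fold and 7 of 50 of 1.2-fold were recovered, with 12 false calls. The changed genes were drawn at random from all genes tested, low counts included.

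Each replicate pair differed by more than counting noise, so none was treated as a copy. The chi-square per degree of freedom between replicates was 3.225 to 7.538 for WT GM-CSF pairs. For pairs of the other groups it was 1.634 to 2.807. Same-numbered libraries did not deviate together (median correlation of deviations 0.005, with 1 of 18 pairs over 0.1), so the numbers were not used as pairs. Named genes are the 12 largest positive and 12 largest negative called interactions at a mean of at least 5 CPM in the highest group, leaving out predicted genes, the 3 members of each of 40 lists with the smallest interaction p, and a fixed set, 149 in all, of which a few are not reported here. Other list members named were chosen after their values were seen. The comparison, the lists and their members were chosen with earlier results of these data known. Of 670 list members 651 were tested.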

Additional observations from a re-analysis of the deposited data

Results flagged for a closer look

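The IL-6 response differed between the genotypes, by the test of the interaction itself, for 2775 genes. The genes named by size met that condition, and the interaction values (log2) of those reported are given here together. Those with a larger or less negative response in labelled-deficient marrow were AY761185 (1.89), Dynlt1c (1.84), C1qb (1.77), C1qa (1.66), Scin (1.61), C1qc (1.59), Fads2 (1.5), Fxyd4 (1.45), Avil (1.41), Hspa1b (1.40) and Hspa1a (1.33). Those with a smaller or more negative response were Soat2 (-2.45), Trib3 (-2.42), Slc6a9 (-2.26), Slc1a4 (-2.24), Chac1 (-2.21), Cth (-1.93), Dner (-1.83), Slc7a5 (-1.51), Extl1 (-1.5), Glrp1 (-1.48), Asns (-1.45) and Igfbp6 (-1.42). Dynlt1c was not called by DESeq2 (1.74, adjusted p = 0.0718).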

How the results depend on the processing

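The interaction was called for 2534 genes by DESeq2, 2603 with DESeq2 size factors in edgeR, 2922 with library sizes alone, 3195 with no low-count filter, 3214 with a filter at 5 CPM, 2091 in a fit of all 18 libraries and 2175 to 3717 without 1 library, the most without WT GM-CSF replicate 2. With the replicate block it was called for 3064 against 2775, and the numbers do not pair the samples. The number higher was 759 with no filter, 828 with all 18 libraries and 615 to 1365 without 1 library. The number lower was 2436 with no filter and 1233 to 2720 without 1 library. The cause was not tested. With a log2 fold change of at least 1 as a further condition the counts were 185 for the interaction (125 higher, 60 lower), 531 for IL-6 in WT, 290 for IL-6 in labelled-deficient marrow, 1037 for genotype under GM-CSF and 1246 for genotype with IL-6. Median interaction values shifted by -0.0762 to 0.0062. Of the values of named genes under alternatives, 2666 kept direction and call, 36 gained a call, 104 lost one and 19 changed sign. The sign changes were in 2 genes that were not called. Alox5ap (0.01) was at -0.0075 by DESeq2, -0.0081 with its size factors, -0.0619 with no filter, -0.006 with all 18 libraries and -0.0649 to 0.0254 without 1 library. Socs1 (0.07) was at -0.006 with no filter and -0.0233 to 0.0963 without 1 library. In the simulation, with 3 libraries a group, small interactions were seldom recovered, and 4-fold ones were recovered for 38 of 50 genes.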

Other observations

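Matrix proteases and inhibitors gave 9 of 17 genes called lower in the interaction and 2 higher, with a median of -0.23. For comparison, 23.4% of well-expressed genes were called in either direction. Mmp19, a matrix metalloproteinase, had -0.54, Plau, the urokinase plasminogen activator, -0.37 and Timp3, a metalloproteinase inhibitor, -0.50. Timp2, another inhibitor, was called higher at 0.33. Of 14 NRF2 antioxidant genes 4 were called lower and 0 higher, beside 23.4% called in either direction among well-expressed genes. Txnrd1, thioredoxin reductase, was at -0.38. Members of these lists were named after their values were seen.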
